A study of Mus musculus with 14 samples.

Results

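The Hox genes are the 39 homeobox genes of the Hoxa, Hoxb, Hoxc and Hoxd clusters, taken by symbol from the GENCODE M21 annotation, out of 35449 genes measured. The Hoxa cluster has 11 of them (GRCm38, chr6:52155590-52260880, minus strand), the Hoxb cluster 10 (chr11:96194316-96368256, plus strand), the Hoxc cluster 9 (chr15:102921103-103036852, plus strand) and the Hoxd cluster 9 (chr2:74668310-74765142, plus strand). They were followed in 14 libraries of transcript 3′ ends, one from each of 14 primary mouse cell lines started from E13.5 embryos. The groups were 3 KO and 3 WT neurosphere lines, which are floating cultures of neural stem and precursor cells from the head, and 5 KO and 3 WT lines of embryonic fibroblasts (MEFs), from the body without head and internal organs. KO lines carried the knockout-first H3f3a allele, in which a cassette placed within the gene disrupts its transcript, and WT lines did not. All lines were untreated, and the labels give no strain, sex or litter. Because the head gave the neurospheres and the rest of the body gave the MEFs, cell type and body region cannot be told apart in these lines.

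Hox proteins are transcription factors that bind DNA through the homeodomain and give cells their position along the body axis. Within each cluster the genes lie in the order in which they are used, so that genes of low paralog number act in the hindbrain and neck and genes of high number act in the lower trunk, the tail and the ends of the limbs. The forebrain and midbrain lack Hox transcripts, limb buds use the last genes of the Hoxa and Hoxd clusters, and Polycomb and Trithorax complexes hold the pattern once it is set, which cultured fibroblasts are known to keep.

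All 39 homeoboxes were found in the annotated transcripts, each of 180 bases within 1 exon. The members on which the results turn are shown, with the 6 codons for the DNA-reading stretch of the homeodomain (tryptophan, phenylalanine, glutamine, asparagine, arginine, arginine) in capitals. Hoxa13 (ENSMUSG00000038203.18, chr6:52258928-52259107, minus strand) and Hoxd13 (ENSMUSG00000001819.4, chr2:74669930-74670109, plus strand) pattern the digits, Hoxc6 (ENSMUSG00000001661.5, chr15:103010754-103010933, plus strand) acts in the thorax, and Hoxa5 (ENSMUSG00000038253.6, chr6:52202632-52202811, minus strand) acts in the neck and lung.
Hoxa13 homeobox: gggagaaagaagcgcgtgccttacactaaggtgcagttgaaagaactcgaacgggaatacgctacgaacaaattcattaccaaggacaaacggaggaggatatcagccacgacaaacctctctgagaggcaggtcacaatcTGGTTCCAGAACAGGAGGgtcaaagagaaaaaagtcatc
Hoxd13 homeobox: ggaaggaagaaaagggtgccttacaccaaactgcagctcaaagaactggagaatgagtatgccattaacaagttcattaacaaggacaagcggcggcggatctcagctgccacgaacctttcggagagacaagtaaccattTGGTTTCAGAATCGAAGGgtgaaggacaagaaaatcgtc
Hoxc6 homeobox: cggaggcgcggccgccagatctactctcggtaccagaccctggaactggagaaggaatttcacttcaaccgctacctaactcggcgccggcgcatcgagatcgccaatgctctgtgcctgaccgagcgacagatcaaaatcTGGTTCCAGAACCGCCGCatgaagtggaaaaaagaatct
Hoxa5 homeobox: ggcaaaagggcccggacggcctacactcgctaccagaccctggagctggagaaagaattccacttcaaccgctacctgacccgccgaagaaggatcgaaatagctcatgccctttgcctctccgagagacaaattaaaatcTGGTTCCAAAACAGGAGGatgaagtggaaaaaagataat
Base for base, the Hoxa13 and Hoxd13 homeoboxes were 73.9% identical, those of Hoxa5 and Hoxc6 75.6%, and those of Hoxa13 and Hoxc6 50%. Over all pairs the median was 80.6% for the 42 pairs of equal paralog number (67.2% to 93.9%) and 61.7% for the 172 other pairs in one cluster (48.3% to 88.9%). Few of the counted 3′ ends shared long runs with other genes. In the last 500 bases of the transcript with most reads, 3 of the 38 genes with any read shared a run of 31 bases with transcripts of another gene. These were Hoxa6, for 6.0% of its positions, Hoxb4 for 1.9% and Hoxd4 for 0.2%.

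The RefSeq promoter table for GRCm38.p6 held 24 promoters of 22 Hox genes. The 250 bases before the start are given for 2 genes that were high in the same MEF lines and for the Hox gene with most counts in neurospheres, at chr6:52260881-52261130 (minus strand) for Hoxa13, chr2:74667975-74668224 (plus strand) for Hoxd13 and chr6:52204588-52204837 (minus strand) for Hoxa5. Capitals mark TATAAA and CCAAT, searched on both strands, and in none of the 24 did matches of the 2 motifs overlap, while in Hoxd13 matches of TATAAA on both strands run into each other.
Hoxa13 promoter: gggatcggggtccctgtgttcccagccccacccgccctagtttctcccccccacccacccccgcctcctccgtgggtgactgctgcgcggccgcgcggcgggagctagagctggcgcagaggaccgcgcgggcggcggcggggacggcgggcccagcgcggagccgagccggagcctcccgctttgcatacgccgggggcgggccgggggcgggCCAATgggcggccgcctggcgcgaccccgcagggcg
Hoxd13 promoter: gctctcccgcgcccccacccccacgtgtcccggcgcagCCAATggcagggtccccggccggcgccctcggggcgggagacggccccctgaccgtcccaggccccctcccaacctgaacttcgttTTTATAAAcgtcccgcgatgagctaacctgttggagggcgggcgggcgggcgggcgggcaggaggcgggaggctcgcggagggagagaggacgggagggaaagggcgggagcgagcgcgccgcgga
Hoxa5 promoter: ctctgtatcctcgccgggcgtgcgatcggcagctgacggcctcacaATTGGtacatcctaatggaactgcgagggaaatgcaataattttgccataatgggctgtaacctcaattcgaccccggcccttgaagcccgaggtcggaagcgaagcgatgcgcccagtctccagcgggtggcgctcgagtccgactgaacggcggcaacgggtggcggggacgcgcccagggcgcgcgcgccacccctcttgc
CCAAT stood in 14 of the 24 Hox promoters and in 33.8% of all 32851 promoters of the same length, TATAAA in 4 of 24 and in 12.4%. The sequence CG occurred 35 times in the Hoxa13 promoter, 31 times in that of Hoxd13 and 28 times in that of Hoxa5, against a median of 12.5 over the Hox promoters and 6.0 over all. A match is a match of letters only.

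Levels are given as CPM, the counts divided by library size and scaled by TMM factors over all 14 libraries. Gene counts per library ran from 1669406 to 3296178, so that 3 counts, the most that a count of 0 allows, equal 0.913 to 1.80 CPM, for counting error only. The labels held: H3f3a averaged 51.9 ± 23.0 CPM in KO and 2149.7 ± 232 CPM in WT neurospheres (SD, n = 3 each), and 15.3 ± 4.71 CPM in KO MEFs (n = 5) and 1039 ± 330 CPM in WT MEFs (n = 3), while H3f3b averaged 2144 and 1924 CPM in KO and WT neurospheres and 1501 and 1519 CPM in KO and WT MEFs. Summed over 10 fibroblast markers, the neurosphere lines had 40.2 to 168 CPM and the MEF lines 13482 to 21721 CPM. Summed over 10 neural stem and precursor markers, the neurosphere lines had 3842 to 6952 CPM and the MEF lines 47.9 to 171 CPM. Over the tested genes other than Hox genes, KO MEFs 3 and WT MEFs 2 stood apart from the other 6 MEF lines on the first principal component (66.9 and 72.0, against -28.7 to -18.6), which held 52.7% of the variance. Among neurospheres the first component held 41.9% of the variance, with KO neurospheres 2 at -63.6 and the other 5 lines between -20.5 and 44.2.

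Hox transcripts were part of every MEF line. Summed over the 39 genes, they reached 641, 663, 732, 632 and 632 CPM in KO MEFs 1 to 5, against 548, 765 and 618 CPM in WT MEFs 1 to 3. Of the 39 genes, 25 had at least 1 CPM in every KO MEF line and 26 in every WT MEF line. In neurospheres the sum was 13.2, 118 and 265 CPM in KO neurospheres 1 to 3, against 2.29, 915 and 1.06 CPM in WT neurospheres 1 to 3. Of the 6 neurosphere lines 5 lay below every MEF line, while WT neurospheres 2 lay above every MEF line. At least 1 CPM in every line was reached by 2 genes in KO neurospheres and by 0 genes in WT neurospheres. Hoxd1 had 0 counts in all 14 lines, 13 genes had 0 counts in all 6 neurosphere lines, and 3 genes (Hoxa6, Hoxb1 and Hoxd1) had 0 counts in all 8 MEF lines. In cultures of many cells, fewer cells that use a gene and less RNA per cell cannot be told apart.

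**Figure D1:**
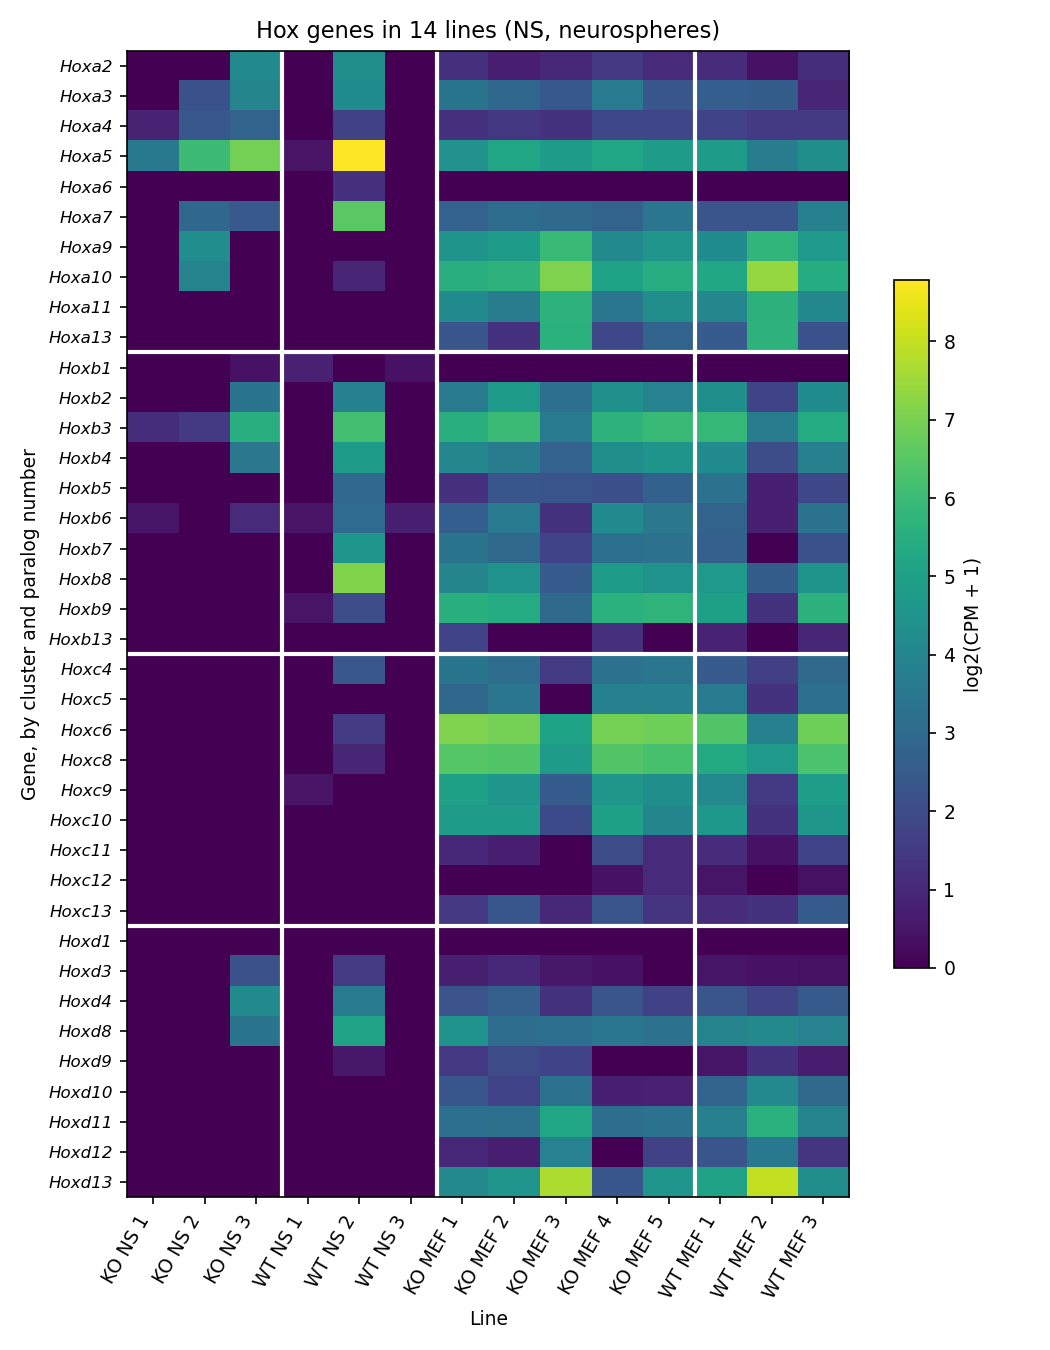
Level of 38 of the 39 Hox genes (rows, by cluster and paralog number) in each of the 14 lines (columns: KO and WT neurospheres, then KO and WT MEFs), as log2(CPM + 1). The 8 MEF lines hold genes of all 4 clusters, while among neurospheres mainly KO neurospheres 3 and WT neurospheres 2, and for the Hoxa cluster KO neurospheres 2, hold counts.

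**Figure D2:**
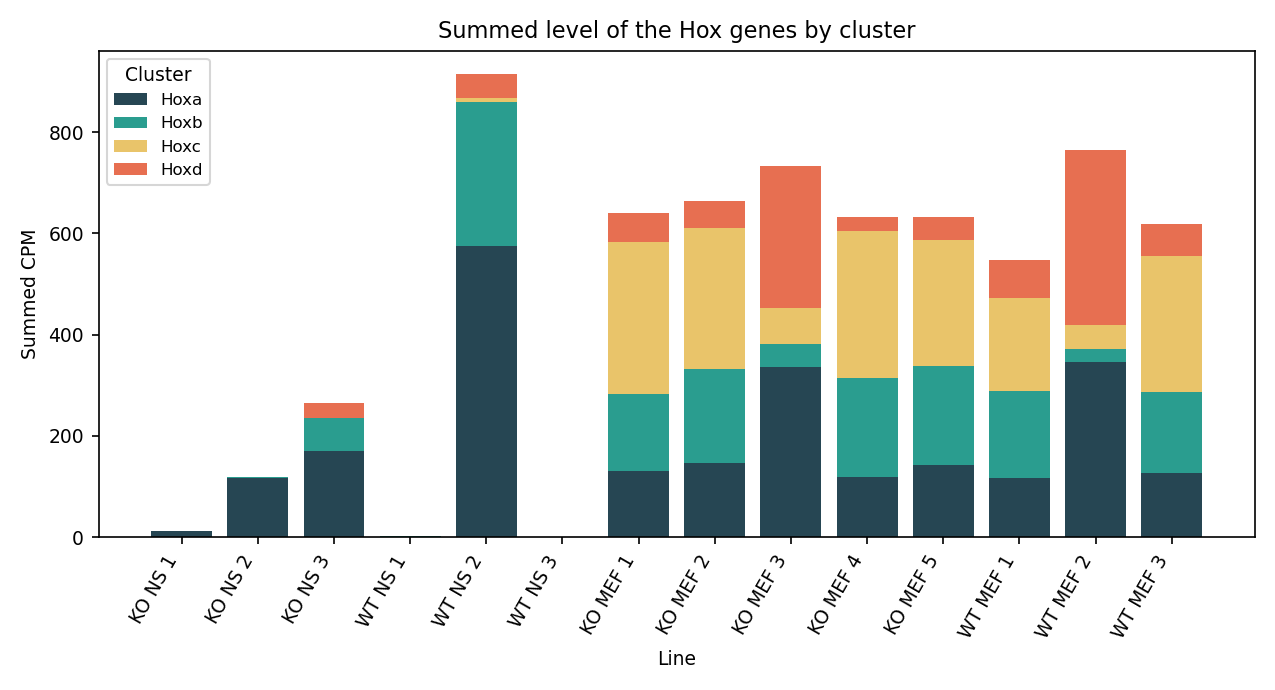
Summed CPM of the Hox genes in each line, stacked by cluster, with KO and WT neurospheres on the left and KO and WT MEFs on the right. The MEF sums lie between 548 and 765 CPM, and the neurosphere sums between 1.06 CPM in WT neurospheres 3 and 915 CPM in WT neurospheres 2.

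Within the MEFs the sum over all Hox genes was similar from line to line, but its make-up was not. The last genes of the Hoxa and Hoxd clusters were high in KO MEFs 3 and WT MEFs 2, 1 line of each genotype. Hoxa genes 9 to 13 summed to 90.2, 90.9, 294, 63.3 and 91.1 CPM in KO MEFs 1 to 5, against 75.2, 321 and 87.3 CPM in WT MEFs 1 to 3. Hoxd genes 9 to 13 summed to 31.7, 37.6, 269.6, 12.8 and 35.0 CPM in KO MEFs 1 to 5, against 55.8, 325 and 43.2 CPM in WT MEFs 1 to 3. The Hoxb and Hoxc clusters ran the other way, with Hoxb sums of 152, 187, 45.5, 194 and 195 CPM in KO MEFs 1 to 5, against 172, 25.8 and 160.4 CPM in WT MEFs 1 to 3. For the Hoxc cluster the sums were 300.4, 278, 70.2, 291 and 248 CPM in KO MEFs 1 to 5, against 184, 48.0 and 269 CPM in WT MEFs 1 to 3. In both clusters KO MEFs 3 and WT MEFs 2 were the lowest lines, below all 6 others.

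**Figure D3:**
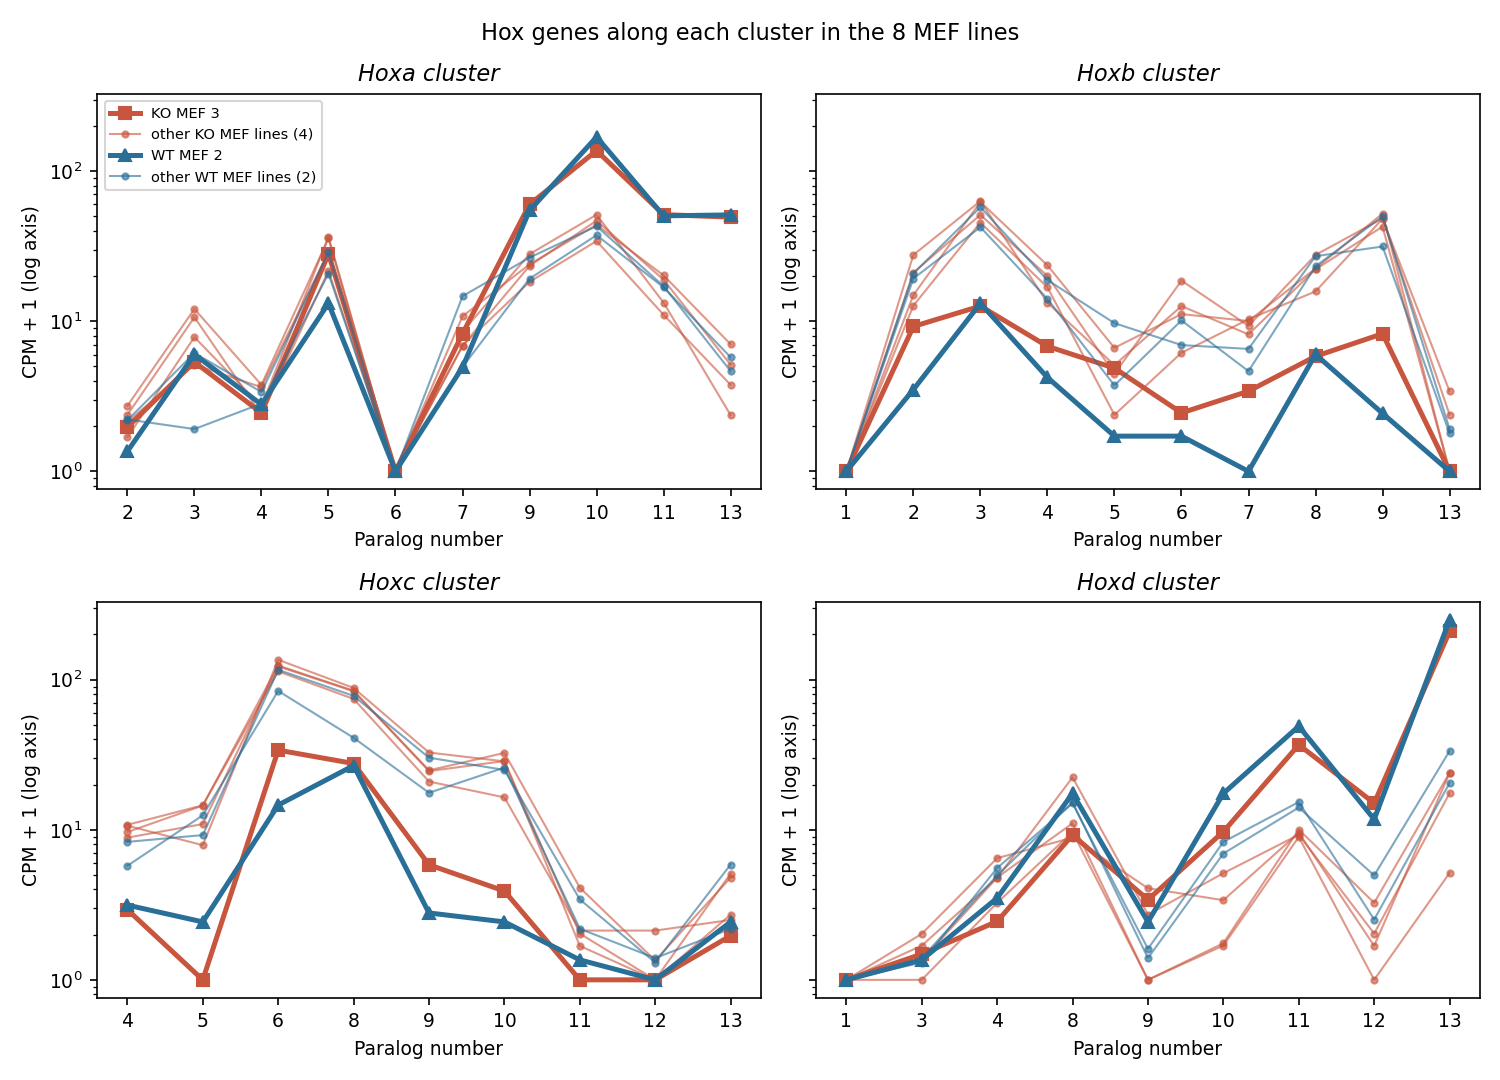
Level of the same 38 Hox genes along their clusters in the 8 MEF lines, as CPM + 1 on a log axis by paralog number, with KO lines in red and WT lines in blue. KO MEFs 3 (squares) and WT MEFs 2 (triangles) lie above the other lines at the 9 to 13 end of the Hoxa cluster and from 10 to 13 of the Hoxd cluster, and below them along most of the Hoxb and Hoxc clusters.

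Hoxd13, which is needed for digit and genital outgrowth, had 16.5, 22.9, 209, 4.15 and 23.0 CPM in KO MEFs 1 to 5, against 32.5, 249 and 19.5 CPM in WT MEFs 1 to 3. Hoxa13, its paralog, had 4.13, 1.37, 48.4, 2.77 and 6.02 CPM in KO MEFs 1 to 5, against 4.75, 50.1 and 3.65 CPM in WT MEFs 1 to 3. KO MEFs 3 and WT MEFs 2 were the highest lines for both genes, and the remaining KO and WT lines overlapped. Hoxd11, which with Hoxa11 shapes the forearm, had 8.27, 8.55, 35.8, 7.96 and 9.04 CPM in KO MEFs 1 to 5, against 13.1, 48.0 and 14.3 CPM in WT MEFs 1 to 3. Hoxa11 had 17.9, 12.3, 50.4, 10.04 and 19.2 CPM in KO MEFs 1 to 5, against 15.8, 49.4 and 16.1 CPM in WT MEFs 1 to 3. Hoxd10, which acts in the hind limb and its motor neurons, had 4.13, 2.39, 8.71, 0.692 and 0.753 CPM in KO MEFs 1 to 5, against 5.94, 16.5 and 7.30 CPM in WT MEFs 1 to 3. The same 2 lines led for all 3 genes, and KO and WT lines overlapped, for Hoxd10 and Hoxd11 only through KO MEFs 3. Hoxa10, which acts in the upper limb segments and the uterus, had 45.8, 50.2, 136, 33.2 and 42.9 CPM in KO MEFs 1 to 5, against 36.4, 168 and 42.0 CPM in WT MEFs 1 to 3. Hoxa9, known also from blood progenitors, had 22.4, 27.0, 59.1, 17.3 and 23.0 CPM in KO MEFs 1 to 5, against 18.2, 53.7 and 25.6 CPM in WT MEFs 1 to 3. In both genes the other 6 lines lay within 17.3 to 50.2 CPM, below KO MEFs 3 and WT MEFs 2.

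Hoxc6, a gene of thoracic identity, had 135, 122, 32.9, 123 and 113 CPM in KO MEFs 1 to 5, against 83.2, 13.6 and 115 CPM in WT MEFs 1 to 3. Hoxc8, which acts in the lower thorax, had 87.1, 82.7, 26.6, 83.4 and 73.4 CPM in KO MEFs 1 to 5, against 40.0, 25.8 and 77.0 CPM in WT MEFs 1 to 3. KO MEFs 3 and WT MEFs 2 were the lowest lines for both. Among the other lines, KO and WT overlapped only through KO MEFs 5 in each gene. For Hoxc6 these lines had 113 to 135 CPM in KO and 83.2 and 115 CPM in WT. Hoxc9, which sets thoracic motor neuron identity, had 31.7, 23.6, 4.84, 23.9 and 19.9 CPM in KO MEFs 1 to 5, against 16.6, 1.79 and 29.2 CPM in WT MEFs 1 to 3. Hoxc10, which acts at lumbar levels, had 27.6, 27.7, 2.90, 31.5 and 15.4 CPM in KO MEFs 1 to 5, against 24.9, 1.43 and 24.0 CPM in WT MEFs 1 to 3. The same 2 lines were lowest, at 1.43 to 4.84 CPM. Hoxc4 had 9.64, 7.86, 1.94, 8.65 and 9.79 CPM in KO MEFs 1 to 5, against 4.75, 2.15 and 7.30 CPM in WT MEFs 1 to 3. Hoxc5 had 20, 29, 0, 39 and 36 counts in KO MEFs 1 to 5, against 29, 4 and 27 counts in WT MEFs 1 to 3. Both genes belong to the neck and upper thorax, and both were lowest in the same 2 lines, with no count of Hoxc5 in KO MEFs 3. For Hoxc4 the KO and WT lines overlapped only through KO MEFs 3.

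Hoxb9, the last of the continuous Hoxb run, had 47.2, 41.7, 7.26, 47.4 and 51.2 CPM in KO MEFs 1 to 5, against 30.5, 1.43 and 49.0 CPM in WT MEFs 1 to 3. Hoxb8, known from neural and blood cells, had 14.8, 21.2, 4.84, 26.6 and 21.5 CPM in KO MEFs 1 to 5, against 26.1, 5.01 and 22.2 CPM in WT MEFs 1 to 3. Hoxb7 had 9.30, 7.18, 2.42, 8.31 and 9.04 CPM in KO MEFs 1 to 5, against 5.54, 0 and 3.65 CPM in WT MEFs 1 to 3. In all 3 genes KO MEFs 3 and WT MEFs 2 were lowest, and Hoxb7 had no count in WT MEFs 2. For Hoxb7 the KO and WT lines overlapped only through KO MEFs 3. Hoxb6 had 5.17, 11.6, 1.45, 17.6 and 10.2 CPM in KO MEFs 1 to 5, against 5.94, 0.716 and 9.13 CPM in WT MEFs 1 to 3. Hoxb5 had 1.38, 4.10, 3.87, 3.46 and 5.65 CPM in KO MEFs 1 to 5, against 8.71, 0.716 and 2.74 CPM in WT MEFs 1 to 3. Hoxb4, which is known from blood stem cells, had 15.8, 12.3, 5.81, 19.0 and 22.6 CPM in KO MEFs 1 to 5, against 17.8, 3.22 and 13.1 CPM in WT MEFs 1 to 3. Hoxb6 and Hoxb4 were lowest in the same 2 lines. For Hoxb5, KO MEFs 1, KO MEFs 4 and WT MEFs 3 also lay below KO MEFs 3. Hoxb3, which acts in the hindbrain, had 44.4, 62.2, 11.6, 50.2 and 61.4 CPM in KO MEFs 1 to 5, against 56.6, 12.2 and 41.4 CPM in WT MEFs 1 to 3. Hoxb2, which also acts in the hindbrain where Egr2 switches it on, had 11.7, 26.7, 8.23, 20.1 and 13.9 CPM in KO MEFs 1 to 5, against 19.8, 2.51 and 18.3 CPM in WT MEFs 1 to 3. Both were lowest in KO MEFs 3 and WT MEFs 2.

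Another set of members did not follow this order. Hoxa5 had 20.7, 35.5, 27.1, 34.6 and 27.9 CPM in KO MEFs 1 to 5, against 27.7, 12.2 and 19.8 CPM in WT MEFs 1 to 3. Hoxa7 had 5.86, 7.52, 7.26, 5.88 and 9.79 CPM in KO MEFs 1 to 5, against 3.96, 3.94 and 13.7 CPM in WT MEFs 1 to 3. Hoxd8 had 21.4, 7.86, 8.23, 10.04 and 8.66 CPM in KO MEFs 1 to 5, against 14.2, 16.5 and 14 CPM in WT MEFs 1 to 3. KO MEFs 3 and WT MEFs 2 did not stand together at either end of the lines in these genes. KO and WT lines overlapped in each, for Hoxd8 only through KO MEFs 1. Counted over the 28 members that passed the filter on low counts, KO MEFs 3 and WT MEFs 2 were the 2 highest of the 8 lines in 8 genes (Hoxa9, Hoxa10, Hoxa11, Hoxa13, Hoxd10, Hoxd11, Hoxd12 and Hoxd13) and the 2 lowest in 13 genes, 7 of the Hoxb and 6 of the Hoxc cluster. The other 7 were Hoxa3, Hoxa5, Hoxa7, Hoxb5, Hoxc13, Hoxd4 and Hoxd8. Over all 10785 genes tested in MEFs, these 2 lines were the highest in 18.0% and the lowest in 20.4%. These 2 shares describe the lines and carry no test. Of the 11 members that the filter removed, Hoxc11 was also lowest in these 2 lines.

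Markers of limb regions were followed in the same lines. Tbx4, a hindlimb gene, had 6.54, 5.13, 67.3, 6.58 and 4.14 CPM in KO MEFs 1 to 5, against 6.73, 82.7 and 3.35 CPM in WT MEFs 1 to 3. Pitx1, also of the hindlimb, had 7.58, 7.52, 24.2, 6.23 and 6.40 CPM in KO MEFs 1 to 5, against 8.31, 27.9 and 5.78 CPM in WT MEFs 1 to 3. Tbx5, of the forelimb, had 4.13, 5.47, 35.8, 1.73 and 4.52 CPM in KO MEFs 1 to 5, against 1.58, 6.09 and 3.96 CPM in WT MEFs 1 to 3. KO MEFs 3 and WT MEFs 2 were the highest lines for each of the 3 genes of the limb list. For Tbx5, WT MEFs 2 lay close to KO MEFs 2 (6.09 against 5.47 CPM) and far below KO MEFs 3. The sum over the list was 14.5 to 127 CPM in KO MEFs and 13.1 to 117 CPM in WT MEFs. Evx2, the homeobox gene next to Hoxd13, had 2.07, 0.342, 27.6, 0.346 and 0 CPM in KO MEFs 1 to 5, against 3.56, 32.2 and 1.52 CPM in WT MEFs 1 to 3, with the same 2 lines highest. Whether tissue from other body parts had a part in the Hox values was not tested.

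The first test asked whether loss of H3f3a transcripts went with a change of Hox levels in fibroblasts. In the edgeR quasi-likelihood test with Benjamini-Hochberg adjustment over all genes, 0 of the 39 members passed in KO against WT MEFs, where 0.00927% of all 10785 tested genes did (H3f3a alone). The filter on low counts kept 28 members, of which 0 had an unadjusted p under 0.05. DESeq2 called 0 as well, with 1 member under that unadjusted p. No member had KO and WT MEF lines that did not overlap, against 1.84% of all tested genes. Of the 28 log2 differences 15 were positive and 13 negative, with a median of 0.13, against -0.0013 over all genes. They ran from -1.61 for Hoxd10 (95% interval -3.25 to 0.03, unadjusted p = 0.0535, adjusted p = 1.00) to 1.25 for Hoxb7 (-0.51 to 3.01).

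For Hoxd13, Hoxa13 and Hoxc6 the KO and WT means differed by less than the SD between WT lines. Hoxd13 averaged 55.0 ± 86.2 CPM in KO MEFs and 100.2 ± 129 CPM in WT MEFs (SD, n = 5 and 3), a log2 difference of -0.89 with a 95% interval of -3.82 to 2.05. Hoxa13 averaged 12.5 ± 20.1 and 19.5 ± 26.5 CPM in KO and WT MEFs (log2 -0.69, -3.62 to 2.25). Both values turned positive, to 1.07 and 1.53, without WT MEFs 2. For Hoxc6 the means were 105 ± 41.1 and 70.7 ± 52.0 CPM in KO and WT MEFs (log2 0.57, -0.92 to 2.06), and for Hoxa5 29.2 ± 6.09 and 19.9 ± 7.77 CPM (log2 0.55, -0.10 to 1.20). The biological coefficient of variation, the spread between lines of one group in the fit, had a median of 0.582 over the 28 members and 0.276 over all tested genes. The intervals of Hoxd13 and Hoxa13 include changes of several fold in either direction. With KO MEFs 3 and WT MEFs 2 both left out together, which was decided on once their values were known, 27 members were tested, 0 passed, and 3 had an unadjusted p under 0.05. These were Hoxd10 (log2 -1.71, interval -3.15 to -0.26), Hoxd11 (-0.70, -1.35 to -0.04) and Hoxa3 (1.45, 0.04 to 2.85), each with an adjusted p of 1.00. Over all genes of that fit, 2.29% had such a p, beside 11.1% of the 27 members. Without KO MEFs 3 alone, 5 of 27 members had an unadjusted p under 0.05, or 18.5%, beside 4.35% of all genes, and 0 passed. That fit kept WT MEFs 2, the other line that stood apart. Leaving out any other single MEF line gave 0 or 1 such member.

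**Figure D4:**
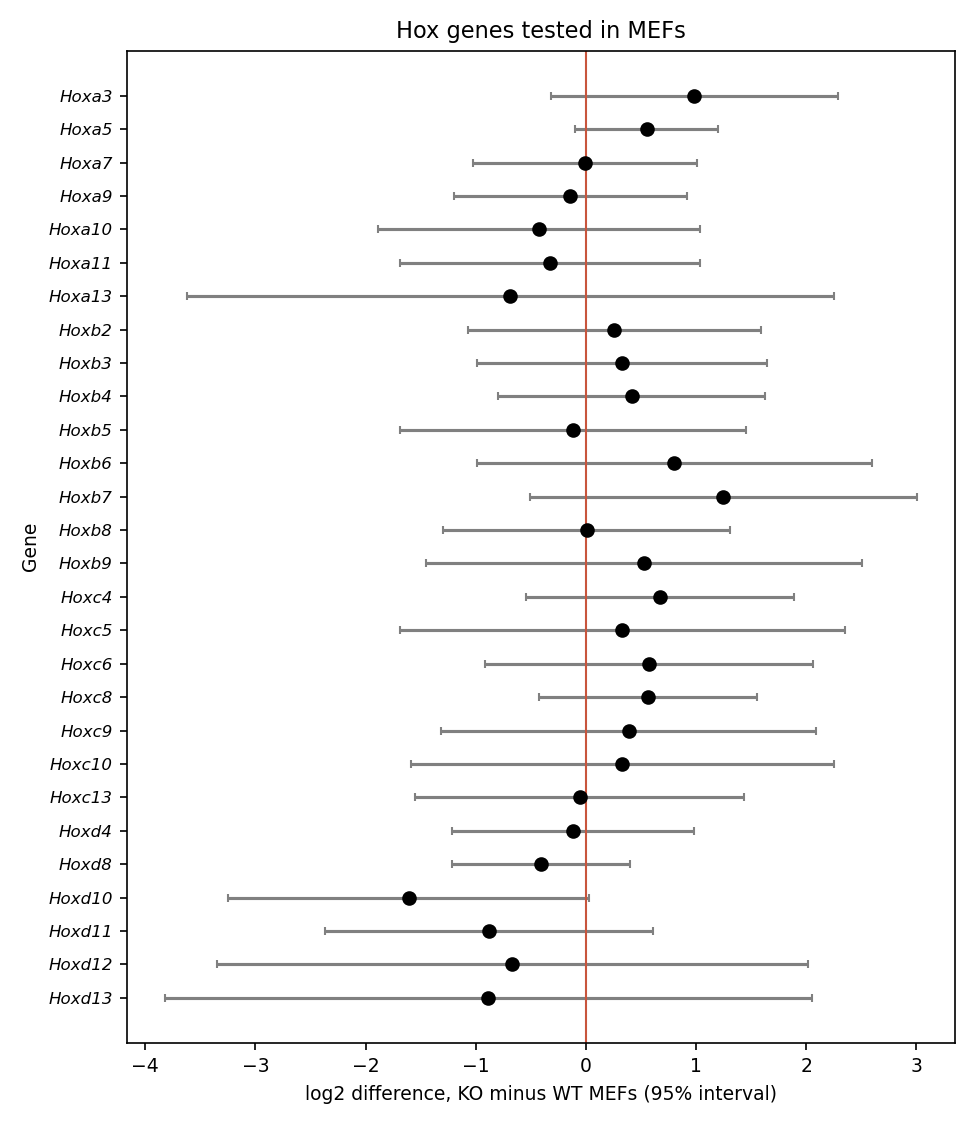
Log2 difference, KO minus WT MEFs, with its 95% interval from the edgeR fit, for the 28 Hox genes that passed the filter on low counts (Hoxa cluster at the top, Hoxd at the bottom). The interval of each gene includes 0, from Hoxd10 at -1.61 to Hoxb7 at 1.25.

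The 6 neurosphere lines differed from one another far more. Hoxa5 had 10.7, 64.1 and 124 CPM in KO neurospheres 1 to 3, against 0.382, 439.6 and 0 CPM in WT neurospheres 1 to 3. Hoxb3 had 1.24, 1.80 and 44.3 CPM in KO neurospheres 1 to 3, against 0, 68.0 and 0 CPM in WT neurospheres 1 to 3. Hoxb8 had 0, 0 and 0 CPM in KO neurospheres 1 to 3, against 0, 136 and 0 CPM in WT neurospheres 1 to 3. KO neurospheres 3 and WT neurospheres 2 were the highest lines for Hoxa5 and Hoxb3, but Hoxb8 was counted in WT neurospheres 2 alone. Hoxa2, which gives the second pharyngeal arch its identity, had 0, 0 and 17.1 CPM in KO neurospheres 1 to 3, against 0, 19.1 and 0 CPM in WT neurospheres 1 to 3. Hoxd4 had 0, 0 and 17.8 CPM in KO neurospheres 1 to 3, against 0, 11.6 and 0 CPM in WT neurospheres 1 to 3. Hoxa3 had 0, 3.59 and 15.0 CPM in KO neurospheres 1 to 3, against 0, 18.2 and 0 CPM in WT neurospheres 1 to 3. Each of these 3 genes, named after their values were seen, belongs to the hindbrain and neck and was highest in KO neurospheres 3 and WT neurospheres 2.

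The reach along the clusters differed as well. Hoxa7 had 0, 6.59 and 4.54 CPM in KO neurospheres 1 to 3, against 0, 91.7 and 0 CPM in WT neurospheres 1 to 3. Hoxb7 had 0, 0 and 0 CPM in KO neurospheres 1 to 3, against 0, 23.8 and 0 CPM in WT neurospheres 1 to 3. Hoxd8 had 0, 0 and 9.43 CPM in KO neurospheres 1 to 3, against 0, 34.0 and 0 CPM in WT neurospheres 1 to 3. WT neurospheres 2 was the highest line for all 3, and Hoxb7 was counted there alone. Hoxb2 had 0, 0 and 9.43 CPM in KO neurospheres 1 to 3, against 0, 13.51 and 0 CPM in WT neurospheres 1 to 3. Hoxb4 had 0, 0 and 10.1 CPM in KO neurospheres 1 to 3, against 0, 26.5 and 0 CPM in WT neurospheres 1 to 3. Hoxb6 had 0.412, 0 and 1.05 CPM in KO neurospheres 1 to 3, against 0.382, 7.45 and 0.709 CPM in WT neurospheres 1 to 3. WT neurospheres 2 led again, with KO neurospheres 3 next. Hoxb5 was counted in WT neurospheres 2 alone, at 6.99 CPM, as was Hoxc4, at 4.19 CPM. In all 6 neurosphere lines Hoxa11, Hoxa13, Hoxc5, Hoxc10, Hoxd10, Hoxd11 and Hoxd13 had no count, and Hoxc6, Hoxc8 and Hoxc9 had at most 1.86 CPM. Summed over all 4 clusters, genes 9 to 13 reached 0, 32.9 and 0 CPM in KO neurospheres 1 to 3, against 0.763, 4.66 and 0 CPM in WT neurospheres 1 to 3.

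KO neurospheres 2 held another part of the Hoxa cluster. Hoxa9 had 0, 18.6 and 0 CPM in KO neurospheres 1 to 3, against 0, 0 and 0 CPM in WT neurospheres 1 to 3. Hoxa10 had 0, 14.4 and 0 CPM in KO neurospheres 1 to 3, against 0, 0.931 and 0 CPM in WT neurospheres 1 to 3. KO neurospheres 2 was the highest line for both, and the Hoxa cluster took 98.5% of its 197 Hox counts. All 24 Hoxa10 counts of that line were assigned to a form annotated as a processed transcript, whereas all 1470 Hoxa10 counts of the MEF lines were assigned to a coding form. The 3′ ends of the 2 forms lie 2 bases apart, so the split is the estimate of the authors' program. KO neurospheres 1, WT neurospheres 1 and WT neurospheres 3 had 32, 6 and 3 Hox counts in all, of which 26 were Hoxa5 in KO neurospheres 1.

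Markers of brain regions and a neighbour of the Hoxa cluster were followed in the same lines. Skap2, which lies beside the Hoxa cluster, had 95.5, 265 and 259 CPM in KO neurospheres 1 to 3, against 74.4, 336 and 53.5 CPM in WT neurospheres 1 to 3. Its highest lines, WT neurospheres 2 and KO neurospheres 2 and 3, were the 3 lines with most Hoxa counts. The sum over the 8 forebrain markers was 58.7 to 160.2 CPM in KO and 47.5 to 281 CPM in WT neurospheres, with Emx1 at 0, and over the 8 midbrain and hindbrain markers 27.9 to 58.1 CPM and 51.04 to 66.8 CPM in KO and WT neurospheres, with Wnt1 and Lmx1a at 0. In MEFs the forebrain list summed to 51.23 to 101.7 CPM in KO and 53.06 to 97.01 CPM in WT lines. The midbrain and hindbrain list summed to 62.45 to 99.81 CPM in KO and 57.99 to 133.4 CPM in WT MEFs. Fibroblasts from the body thus had such counts too, so the sums do not mark a brain region. The ranges also do not give the sums of single lines. The part of brain region in the Hox values was not tested.

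**Figure D5:**
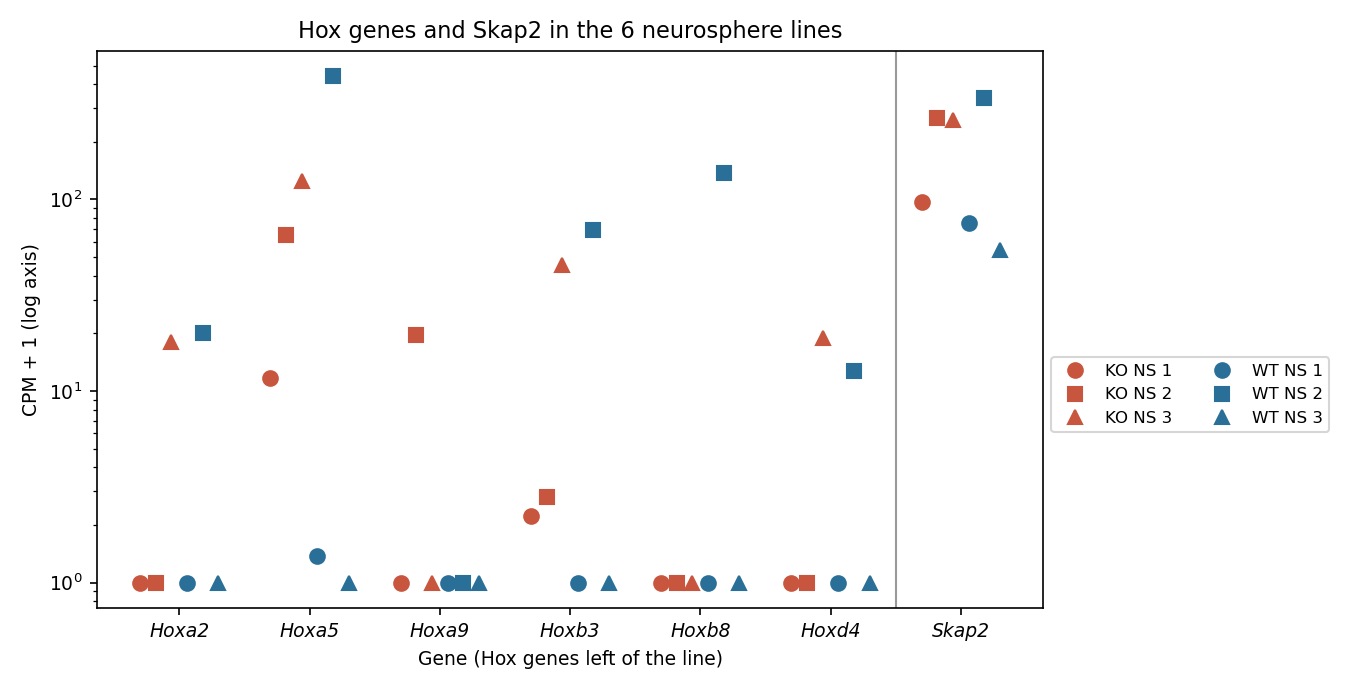
Level of 6 Hox genes and of Skap2 in the 6 neurosphere lines, as CPM + 1 on a log axis (KO red, WT blue; circles, squares and triangles are lines 1, 2 and 3; a value of 1 is a count of 0). KO neurospheres 3 and WT neurospheres 2 are highest in Hoxa5, Hoxb3, Hoxa2 and Hoxd4.

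Between KO and WT neurospheres, 0 of the 39 members passed the edgeR quasi-likelihood test, where 0.00941% of all 10624 tested genes did. The filter kept 2 members. Hoxa5 averaged 66.1 ± 56.5 CPM in KO and 147 ± 254 CPM in WT neurospheres (SD, n = 3 each), a log2 difference of -1.12 with a 95% interval of -6.02 to 3.78. Hoxa7 averaged 3.71 ± 3.37 and 30.6 ± 53.0 CPM in KO and WT neurospheres (log2 -3.05, -8.21 to 2.10). Neither had an unadjusted p under 0.05, and DESeq2 also called 0 with 0 under that p. Without WT neurospheres 2 the 2 log2 values were 8.18 and 6.21, so the direction rests on 1 line. No member had KO and WT lines that did not overlap, against 7.2% of all tested genes.

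The next comparison set neurospheres against MEFs of the same genotype. In WT lines 8 of the 39 members fell (Hoxa9, Hoxa10, Hoxa11, Hoxc6, Hoxc8, Hoxd10, Hoxd11 and Hoxd13) and 0 rose. The filter kept 19 members, so that 42.1% of those tested fell, and 20.5% of all 39. Of all 11080 tested genes 20.8% fell and 20.8% rose. In KO lines 16 fell (Hoxa10, Hoxa11, Hoxa13, Hoxb5, Hoxb6, Hoxb7, Hoxb8, Hoxb9, Hoxc4, Hoxc5, Hoxc6, Hoxc8, Hoxc9, Hoxc10, Hoxd11 and Hoxd13) and 0 rose. Here 25 members were tested, so that 64.0% of those tested fell, and 41.0% of all 39. Of all 11413 tested genes 26.2% fell and 25.4% rose. The 2 comparisons share no line, and 6 members fell in both, 75.0% of the 8 and 37.5% of the 16. The share of all genes that fell in both is not given here, so these percentages are descriptions. Of the WT falls, Hoxd10 was not tested in KO lines, and Hoxa9 did not pass there (edgeR adjusted p = 0.103). Of the KO falls, Hoxa13, Hoxb5, Hoxb7, Hoxb9, Hoxc5, Hoxc9 and Hoxc10 were not tested in WT lines. Hoxb6 (log2 -0.95), Hoxb8 (1.37) and Hoxc4 (-1.86) were tested there and did not pass (edgeR adjusted p = 0.535, 0.563 and 0.248). Hoxb8 thus had the opposite sign in WT. Members with few counts outside the MEFs could pass the filter only through the MEFs, where they are high, so that the shares of tested members are descriptions. Every KO neurosphere line lay below every KO MEF line in 15 of the 25 tested members, or 60%, and in 17 of all 39, beside 25.6% of all tested genes. In WT this held for 8 of the 19 tested members, or 42.1%, and for 16 of all 39, beside 28.9% of all tested genes.

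Many of the falls reached the limit of counting. Hoxc6 had 0 counts over the 3 KO neurosphere lines and 1470 over the 5 KO MEF lines, which makes it at least 254-fold lower against a floor of 3 counts over the KO neurospheres (edgeR adjusted p = 0.00011). In WT it had 4 counts over the neurospheres and 627 over the MEFs, 138-fold lower in neurospheres (adjusted p = 0.0044). Hoxc8 was at least 170-fold lower in KO neurospheres (0 against 986 counts, adjusted p = 6.75e-05), and in WT its 2 counts stood against 426, a MEF-to-neurosphere ratio of 188 with an exact counting interval of 51.7 to 1556. Both thoracic genes thus fell in each genotype. Hoxd13 was at least 107-fold lower in KO neurospheres than in KO MEFs (adjusted p = 0.0162) and at least 247-fold lower in WT neurospheres than in WT MEFs (adjusted p = 0.0131), with 0 counts in all 6 neurosphere lines. Hoxa11 was at least 46.97-fold and 67.9-fold lower in KO and WT neurospheres, and Hoxd11 at least 29.4-fold and 62.9-fold lower. Hoxa10 had 24 counts over KO neurospheres against 771 over KO MEFs (16.6-fold lower, adjusted p = 0.0181), and 2 against 699 in WT (ratio 308, interval 85.0 to 2550.3). Some of these values rest in large part on 1 MEF line, as lines left out after the values were known showed. Without KO MEFs 3 the bound of Hoxd13 in KO was 38.4-fold. Without WT MEFs 2 the WT bounds were 63.5-fold for Hoxd13, 40.5-fold for Hoxa11 and 34.8-fold for Hoxd11, and the WT ratio of Hoxa10 was 150.2. Without WT MEFs 3 the WT values were 88.5-fold for Hoxc6 and 123 for Hoxc8. Leaving out a neurosphere line moves the floor itself, by up to 1.699 times.

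The remaining falls in KO lines were of Hoxb and Hoxc genes. Hoxb9 was at least 94.5-fold lower in KO neurospheres than in KO MEFs (0 against 547 counts), Hoxc10 at least 51.6-fold, Hoxc9 at least 50.6-fold and Hoxb8 at least 43.0-fold. In WT lines Hoxb8 averaged 45.5 ± 78.8 CPM in neurospheres, all from WT neurospheres 2, and 17.8 ± 11.2 CPM in MEFs (SD). The bounds were 18.3-fold for Hoxc4, 17.4-fold for Hoxb7, 21.4-fold for Hoxc5, 24.2-fold for Hoxa13 (8.16-fold without KO MEFs 3) and 8.46-fold for Hoxb5, while Hoxb6 had 4 against 130 counts (16.8-fold lower). For Hoxa13 the adjusted p of 0.0312 was lost without any 1 of the KO neurosphere lines (0.0541 to 0.0803) and, like that of Hoxa10 and Hoxd13, with no filter on low counts (0.0751, against 0.0612 for Hoxa10 and 0.0871 for Hoxd13). That of Hoxd13 was 0.0608 without KO neurospheres 3, and that of Hoxa10 was 0.0545 without KO neurospheres 1. In WT lines Hoxa9 was at least 82.3-fold and Hoxd10 at least 25.0-fold lower in neurospheres, and with no filter the adjusted p of Hoxd13 was 0.124. Without WT neurospheres 2, 22 of 25 tested members fell in WT, or 88.0%, beside 17.1% of all genes tested in that fit. WT neurospheres 1 and 3 held only 6 and 3 Hox counts, so members could pass that filter only through the MEFs. The 88.0% is therefore a description and no test of the members. Without WT MEFs 2, 12 of 25 fell, or 48.0%, beside 22.6%.

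Hoxa5 was not among the genes that fell. It averaged 66.1 ± 56.5 CPM in KO neurospheres and 29.2 ± 6.09 CPM in KO MEFs (SD, n = 3 and 5), a log2 difference of 1.20 with a 95% interval of -0.06 to 2.46 and an adjusted p of 0.0995 in edgeR. Without KO neurospheres 1 the log2 value was 1.71 and the adjusted p 0.00236. In WT it averaged 147 ± 254 CPM in neurospheres and 19.9 ± 7.77 CPM in MEFs (n = 3 each; log2 2.91, -1.74 to 7.56), with an adjusted p of 0.272. Without WT neurospheres 2 the log2 value was -6.43 and the adjusted p 0.00418. By deposited TPM, which divides by transcript length, Hoxa5 led the Hox genes in KO and WT neurospheres (37.5 ± 33.3 and 82.5 ± 143 TPM), and Hoxc6 led in KO and WT MEFs (115 ± 42.7 and 77.1 ± 53.7 TPM). Because the libraries read mainly 3′ ends, dividing by length can shift the order between genes. By mean CPM, Hoxa5 also led in KO and WT neurospheres and Hoxc6 in KO MEFs. By mean CPM in WT MEFs, Hoxd13 (100.2 ± 129 CPM) and Hoxa10 (82.1 ± 74 CPM) lay above Hoxc6 (70.7 ± 52.0 CPM). In TPM the SD of Hoxa5 exceeded its mean in WT neurospheres, and the next genes in MEFs, Hoxc8 in KO (30.4 ± 10.4 TPM) and Hoxd13 in WT (37.4 ± 49.4 TPM), lay apart from Hoxc6 by more than their SD in KO but not in WT.

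The interaction test asked whether the KO difference itself differed between neurospheres and MEFs. In edgeR, 0 of 28 tested members passed, where 0.0% of 12113 genes did. For 9 of them no neurosphere line had a count, so that no difference could be estimated. Unadjusted p-values under 0.05 were given to 4 members, Hoxa9 (log2 6.99, SE 2.82), Hoxb7 (-8.59, SE 3.12), Hoxb8 (-9.89, SE 3.65) and Hoxc4 (-5.48, SE 2.31), each with an adjusted p of 1.00. DESeq2 called 0 members, with 6 under that unadjusted p. These were 14.29% of the 28 members in edgeR and 21.43% in DESeq2, beside 3.022% and 3.302% of all tested genes. By deposited TPM with limma, and also with a replicate block, 0 of the 28 members had such a p. Each of the 4 rests on 1 line: the value of Hoxa9 was 0.14 without KO neurospheres 2, and those of Hoxb7, Hoxb8 and Hoxc4 were -1.25, -0.01 and -0.68 without WT neurospheres 2.

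The 15 members without a group mean of 10 CPM and without a call included Hoxa2, Hoxa3, Hoxa4 and Hoxa6, Hoxb1 and Hoxb13, Hoxc11, Hoxc12 and Hoxc13, and Hoxd1, Hoxd3, Hoxd4, Hoxd9 and Hoxd12. Hoxa4 ran from 0.824 to 5.93 CPM in KO neurospheres, against 0 to 2.33 CPM in WT neurospheres. Hoxd12, of the digits, was highest in KO MEFs 3 and WT MEFs 2 (14.04 and 10.7 CPM), like its neighbours. Hoxb1, a hindbrain gene, had 4 counts in all, over KO neurospheres 3, WT neurospheres 1 and WT neurospheres 3. Hoxb13, which lies apart from the other Hoxb genes, and Hoxc11, Hoxc12 and Hoxc13, the last Hoxc genes, had no count in any neurosphere line and at most 4.10 CPM in KO and 4.87 CPM in WT MEFs.

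For some members the counted 3′ end belongs to an annotated form other than the main coding one. All 384 Hoxa7 counts were assigned to a form annotated as subject to nonsense-mediated decay, and all 384 Hoxd11 counts to one annotated as a processed transcript. Of the Hoxc8 counts, 99.3% were assigned to one annotated with a retained intron. Each of these forms holds the whole homeobox in its sequence, and tags from one end do not show which form or coding sequence the RNA carried.

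Hox proteins bind DNA with TALE cofactors such as those of the Meis and Pknox families, and their genes are governed by retinoic acid, Cdx factors, Polycomb and Trithorax. In KO against WT MEFs, KO against WT neurospheres and the interaction, 0 members of the lists of 9 cofactors, 27 regulators and 11 genes beside the clusters passed. Between neurospheres and MEFs, 4 of 7 tested cofactors rose and 0 fell in KO lines, where 25.4% of all tested genes rose and 26.2% fell, among them Meis2 (log2 0.95), Pknox1 (0.87) and Meis1 (1.47), and 1 of 7 rose in WT lines, Pknox1 (1.11), where 20.8% of all tested genes rose and 20.8% fell. Of the regulators, 7 of 22 tested rose (31.8%) and 5 fell (22.7%) in KO lines, and 4 of 21 rose and 4 fell (19.0% each) in WT lines, near those shares of all genes. Rarg, a retinoic acid receptor, fell in both (log2 -5.77 and -4.30 in KO and WT), as did the Polycomb gene Eed (-1.20 and -1.39). In KO lines Pcgf2, another Polycomb gene, fell by 2.24 on the log2 scale and Bmi1, of the same family, rose by 1.30. In WT lines Rara, a second retinoic acid receptor, fell by 1.66 and Gdf11, a signal for posterior identity, rose by 1.78. Cdx1, Cdx4 and Cyp26c1 had no count in any line. Of the 11 genes beside the clusters 6 were tested, of which 3 rose (50%) and 2 fell (33.3%) in KO lines, and 2 rose and 2 fell (33.3% each) in WT lines: Calcoco1 (3.48 and 3.14 in KO and WT) rose and Lnpk (-1.24 and -1.46) and Mtx2 (-1.20 and -1.24) fell in both, while Hibadh rose by 0.92 in WT and Skap2 by 2.15 in KO lines. Of a list of 12 noncoding genes of the Hox clusters, such as Hotair and Hottip, 0 were among the genes measured, so they could not be tested.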

How the data were processed

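The deposited files held 1 library per cell line from QuantSeq 3′ FWD sequencing, which reads mainly the 3′ ends of transcripts. Reads were quantified per transcript by the authors with Salmon 1.1.0, per the submitters' processing notes, which also name edgeR. The expected counts deposited by the authors are Salmon's estimated counts of reads per transcript, per the file headers. The deposited TPM were made by the authors from them by dividing by effective length, per the file headers. The labels name no transcript set or build. Transcripts were matched to GENCODE M21 (GRCm38), and 0.251% to 0.425% of counts per library stayed unmatched. Counts were summed per gene identifier and rounded. Totals of 1669406 to 3296178 counts limit precision as the floors of 3 counts show. TMM scaling, filterByExpr and robust quasi-likelihood tests were run in edgeR 4.0.16 (R 4.3.3), with Benjamini-Hochberg adjustment over all genes tested and a threshold of 0.05. KO against WT was fitted within each cell type, neurospheres against MEFs within each genotype, and the interaction on all 14 libraries.

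DESeq2 1.42.0, limma 3.58.1 on log2(TPM + 1), other filters and scaling, a replicate block and leaving out each library were alternatives. The scripts were tested on simulated data. Each line is called independent in the series' design text, so p-values measure the spread between lines, of which the labels give no embryo or litter. Names of the deposited files may hold embryo numbers that MEF and neurosphere lines share. No label explains them, so these lines were treated as unpaired, which may not hold. Members and lists were chosen with earlier results of these data known. Values in every line are printed for the 24 members that passed any comparison or averaged at least 10 CPM in a group. At most 4 passing genes per list and comparison are named, by smallest p. Principal components used log2 CPM with a prior count of 2. Homeoboxes were located by the codons for the 6 named residues. Some genes are not reported here.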

Additional observations from a re-analysis of the deposited data

Results flagged for a closer look

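In 11 of the 24 members that were printed by line, 1 of the 5 KO MEF lines lay farther from the others than the 95% critical value of Dixon's test allows. Chance flags about 1 in 20 groups, and these members are not independent of one another. The share of all genes flagged in this way is not given here. On the first principal component without Hox genes, KO MEFs 3 lay at 66.9 and the other KO MEF lines at -28.7 to -18.6. The count of flags therefore describes that line and is no result particular to the Hox genes. In 10 of the 11 the line was KO MEFs 3. It was the highest KO MEF line for Hoxa9 (59.1 CPM), Hoxa10 (136.0 CPM), Hoxa11 (50.4 CPM), Hoxa13 (48.4 CPM), Hoxd11 (35.8 CPM) and Hoxd13 (209 CPM). It was the lowest for Hoxb9 (7.26 CPM), Hoxc4 (1.94 CPM), Hoxc6 (32.9 CPM) and Hoxc8 (26.6 CPM). For Hoxd8 the line was KO MEFs 1, which was the highest at 21.4 CPM. Groups of 3 lines were not examined in this way, WT MEFs and both neurosphere groups among them.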

How the results depend on the processing

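Without WT MEFs 2 the KO-minus-WT log2 differences in MEFs turned positive for Hoxa13 and Hoxd13, with ranges of -2.46 to 1.53 and -2.61 to 1.07 over all lines left out. Between KO and WT neurospheres, Hoxa5 was positive by TPM (1.95) and with the replicate block (2.399), and ran from -1.997 to 8.18 over lines left out, and Hoxa7 from -3.66 to 6.21. Between WT neurospheres and WT MEFs, Hoxa5 was negative by TPM (-0.81) and with the block (-1.90), and ran from -6.43 to 3.50. The cause was not tested. The WT count of 8 lower Hox genes was 15 in a fit of all 14 libraries and 8 to 22 over lines left out, and in KO lines 0 to 1 Hox genes were higher. The log2 ratio of summed Hox levels ran from -2.22 to 6.30 between KO and WT neurospheres and from -8.58 to -0.49 between WT neurospheres and WT MEFs. Detected genes, 2 in KO and 0 in WT neurospheres, were 6 and 9 at a mean of at least 5 CPM. Of all genes, KO against WT MEFs gave 0 calls with the block and, with KO MEFs 3 and WT MEFs 2 left out (chosen after seeing the data), 3. KO against WT neurospheres gave 7 by DESeq2, 2 with no filter and 0 to 2 over lines left out, the interaction 3 by DESeq2. Same-numbered lines correlated at -0.588 to 0.225, so the replicate numbers were not taken to pair lines. Pairing by embryo was not tested. The replicate block gave 8 and 13 lower Hox genes in WT and KO lines and 3295 calls of all genes between KO neurospheres and KO MEFs, against 5892. Counted once per gene and alternative, 13 results for single genes lost their call and 1 gained one, those described above included. With 3 counts as the floor, genes under about 1 CPM could not be compared.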
